A study of Mus musculus with 27 samples.

Results

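Control mK4 cells, the parental line from which the study made its knockouts, were described here from their poly(A) RNA-seq. Peak lists of open chromatin and Runx binding were set beside the levels. Members were chosen by label and column name, as the 3 libraries of genotype WT, and they made up 3 of the 9 RNA-seq libraries and 3 of the 27 samples of the series. The study removed Runx1, or Zeb1 and Zeb2 together, from this mouse line and measured RNA, open chromatin and Runx binding. No RNA-seq library of either knockout was used, but Runx1KO samples entered the peak lists: the lists of open regions were sorted by whether a site stayed open without Runx1, and the authors removed Runx1 peaks that also appeared in Runx1 ChIP of Runx1KO cells. mK4 is a cell line that the labels call kidney metanephric mesenchyme. The cells carried no introduced deletion, grew without added agent in DMEM with fetal bovine serum, were taken in triplicate near confluency, and were lifted with trypsin before RNA was collected. A line in culture has passed through many divisions outside the embryo and holds neither the ureteric bud nor the other cell types that surround the mesenchyme in a kidney. Levels are in TPM, transcript abundance scaled to gene length and to a sum of 1000000 for each library, and a gene was called detected when it reached 1 TPM in all 3 libraries. Nothing was compared between conditions, so that no test was made, and each mean is given with the SD over the 3 libraries.

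As background, the metanephric mesenchyme is the embryonic tissue from which the nephrons of the kidney arise. Its progenitor cells, kept by transcription factors such as Six2, Osr1, Sall1 and Wt1, secrete Gdnf to the Ret receptor of the ureteric bud, and under Wnt signals they condense and pass from mesenchyme to epithelium while Wnt4, Pax8 and Lhx1 come on. Next to them lies the stroma, marked by Foxd1, which gives rise to interstitial cells and pericytes.

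In the 3 control libraries 12245 of 24953 listed entries were detected, 7946 were listed at 0 in every library and 641 reached 1 TPM in only 1 or 2 libraries. Of 20678 protein-coding genes, 11211 (54.2%) were detected, and the median over all protein-coding genes was 3.23 TPM. Of these genes 93 had a mean of at least 1000 TPM, 2084 lay between 100 and 1000 TPM and 6586 between 10 and 100 TPM. The 100 most abundant entries held 18.8% ± 0.229 (SD, n = 3) of all TPM and the 1000 most abundant held 52.9% ± 0.298. TPM keeps no read depth, so the precision of low values is unknown, and the spread between libraries was small. Between pairs of libraries Pearson's r of log2(TPM + 1) was 0.992 to 0.993 across 12886 genes, which are not independent replicates. Among 8763 protein-coding genes with a mean of at least 10 TPM, the highest library was a median of 1.07 times the lowest, 94.2% stayed under 1.2 times and 11 reached 1.5 times or more. Among the 11, chosen after their values were seen, was the cyclin gene Ccna2, which had 186 TPM in replicate 1, 232 TPM in replicate 2 and 281 TPM in replicate 3. By the study's methods the 3 libraries are biological triplicates, cultured in plate wells, so that the SD covers cultures of 1 line. Whether these cultures were grown at the same time is not stated. A further TPM table of the series holds the same 3 libraries with other values for many genes. Across 11468 protein-coding genes Spearman's rho between both tables was 0.866, but the ratio of the further table to the main one had a 25th percentile of 0.518 and a 75th percentile of 1.41. Of the 100 highest protein-coding genes in each, 70 were shared. Orders of magnitude and the presence of a gene were therefore read more firmly than exact levels, and the level from that further table (the 6-library table) is given beside key genes.

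**Figure D1:**
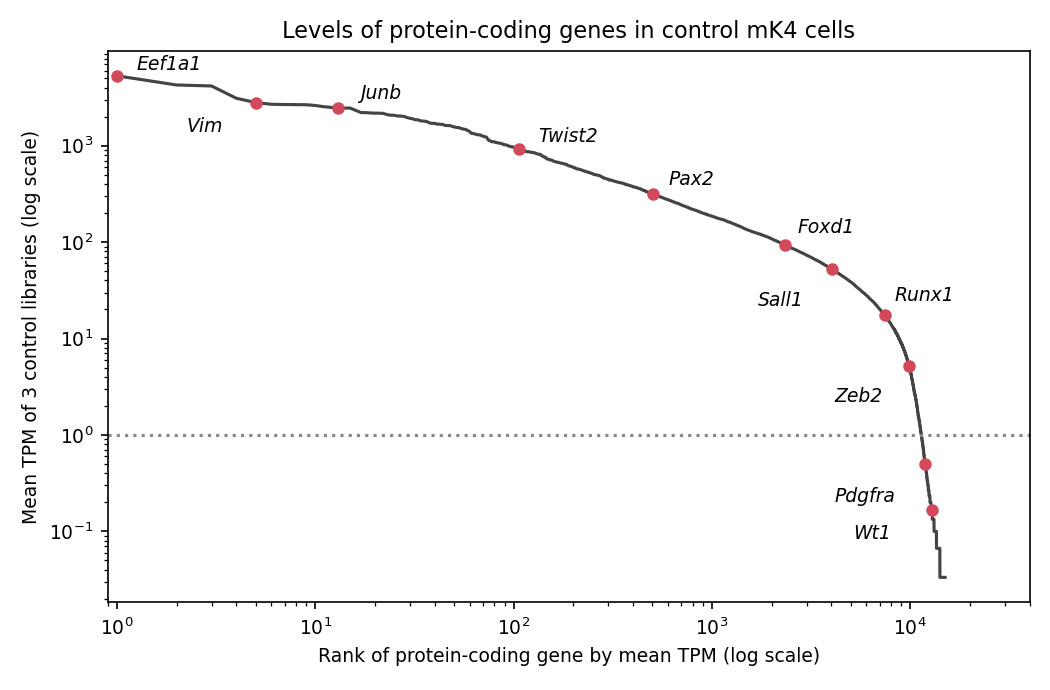
Mean TPM of each protein-coding gene above 0 over the 3 control libraries (log vertical axis) against its rank (log horizontal axis); red points mark named genes and the dotted line 1 TPM. Vim and Junb lie above 2000 TPM, Foxd1 and Sall1 between 50 and 100 TPM, and Pdgfra and Wt1 under 1 TPM.

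The label was first checked against the defining markers of kidney cell types, and the nephron progenitor set was present only in part. The paper itself likens mK4 cells to cells that are passing from mesenchyme to epithelium, not to self-renewing progenitors. Of 24 genes on the nephron progenitor list 11 were detected and 7 were listed at 0, with a median of 0.567 TPM. For all protein-coding genes the share detected was 54.2% and the median 3.23 TPM. Pax2, a paired-domain factor needed from the start of kidney formation, had 316, 314 and 310 TPM in the 3 libraries (mean 313 ± 2.78; 158 TPM in the 6-library table). Hoxa11, which patterns the mesenchyme, had a mean of 214 ± 2.86 TPM (95.4 TPM in the 6-library table). Osr1, one of the earliest markers of the kidney field, had 66.4 ± 3.87 TPM and the zinc finger gene Sall1 had 52.1 ± 2.29 TPM. Osr1 was above Sall1 in every library. The coactivator gene Eya1 (16.2 ± 0.379 TPM), the ligand gene Gdnf (12.7 ± 1.2 TPM), Six4 (8.73 ± 0.551 TPM) and the survival signal Bmp7 (6.43 ± 0.569 TPM) were lower. In the 6-library table Eya1 at 25 TPM and Gdnf at 24.7 TPM came near Sall1 at 25.9 TPM, with Osr1 at 33.4 TPM. Six4 (6.34 TPM) and Bmp7 (3.07 TPM) stayed well below them there.

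The genes that mark the self-renewing progenitor itself were missing. Six2, the gene that keeps progenitors from differentiating, was listed at 0 in all 3 libraries of both tables. Cited1 was at 0.4, 0.1 and 0.1 TPM, Wt1 at 0.1, 0.1 and 0.3 TPM, and Meox1 at 0.3, 0.2 and 0.6 TPM. Fgf9 and Fgf20, both progenitor maintenance signals, and Hoxd11, the paralogue that acts with Hoxa11, were also listed at 0. An exact 0 in a TPM table can be a gene that was not quantified. 42 protein-coding genes were at 0 here and at 1 TPM or more in the 6-library table, among them the sterol synthesis gene Hmgcs1 at 158 TPM, but none of the markers just named were among them. Of the label's defining markers, Pax2, Osr1, Sall1 and Hoxa11 were thus present and Six2, Cited1 and Wt1 were at or near 0.

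Promoters of 2 of these genes, from 250 bases before to 50 bases after the RefSeq start site in GRCm38.p6, are shown to set an active progenitor regulator beside a silent one, with each CpG, the dinucleotide that methylation acts on, in capitals. The Hoxa11 promoter (chr6:52245761-52246060, minus strand) held 15 CpGs, and the Six2 promoter (chr17:85688205-85688504, minus strand) held 37.
Hoxa11: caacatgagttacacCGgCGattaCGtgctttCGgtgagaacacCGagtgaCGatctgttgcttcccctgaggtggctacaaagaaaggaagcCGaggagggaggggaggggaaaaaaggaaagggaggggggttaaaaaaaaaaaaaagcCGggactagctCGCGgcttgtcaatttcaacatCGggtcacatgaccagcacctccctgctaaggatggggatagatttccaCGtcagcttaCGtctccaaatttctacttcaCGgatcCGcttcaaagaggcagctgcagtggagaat
Six2: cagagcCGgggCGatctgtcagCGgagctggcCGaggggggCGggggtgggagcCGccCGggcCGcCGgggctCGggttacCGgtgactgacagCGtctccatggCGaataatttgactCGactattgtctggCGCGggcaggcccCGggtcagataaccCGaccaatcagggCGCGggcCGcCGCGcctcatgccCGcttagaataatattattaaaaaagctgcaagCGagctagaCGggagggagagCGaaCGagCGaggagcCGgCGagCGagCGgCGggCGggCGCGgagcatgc
Each sequence had 1 exact match in the mm9 genome that the peak lists use. The Hoxa11 match met an open region and a Runx2 peak of control cells, and the Six2 match met neither an open region nor a Runx peak. All 11 detected genes of the nephron progenitor list had an open region within 500 bp of their start site, against 1 of the 7 listed at 0. Over all protein-coding genes the share was 88.2% from 10 to under 100 TPM, 91.7% at 100 TPM or more and 2.80% at 0.

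**Figure D2:**
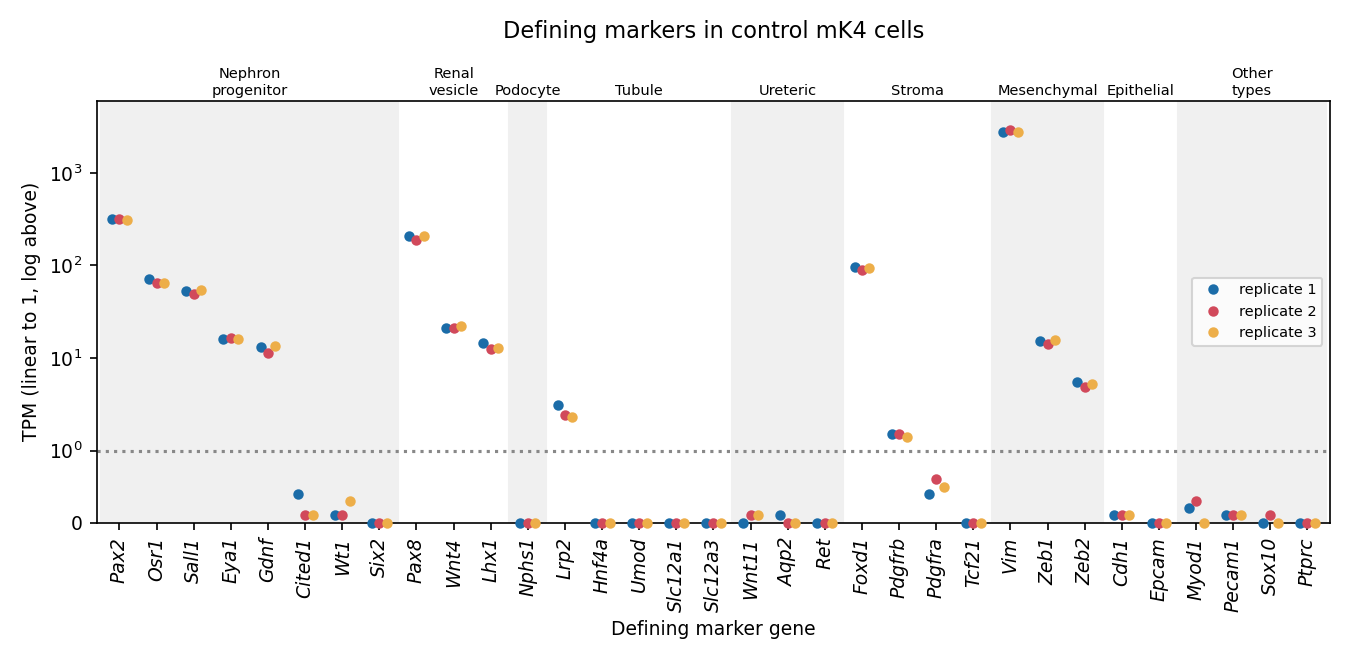
TPM of the defining markers of each cell type in the 3 control libraries (points), on an axis that is linear from 0 to 1 TPM (dotted line) and logarithmic above. Pax2, Pax8, Foxd1 and Vim stand high, whereas Six2, Nphs1, Hnf4a, Umod, Ret, Tcf21 and Epcam lie at 0.

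Genes of the next step, the pretubular aggregate and renal vesicle, had the largest share detected of the nephron lists, near that of all protein-coding genes. Of 16 genes 10 were detected (62.5%, median 4.8 TPM), against 54.2% and a median of 3.23 TPM for all protein-coding genes. Pax8, the paired factor that follows Pax2, had 205, 187 and 208 TPM. Ccnd1, a cyclin of the early vesicle and of many dividing cells, had 221 ± 8.87 TPM and did not overlap Pax8. Cdh6, a cadherin of the early proximal tubule, had 40.3 ± 3.16 TPM. The inducing signal Wnt4 had 21.5 ± 0.643 TPM and Lhx1 had 13.4 ± 1.08 TPM. Lef1, which carries the Wnt signal to DNA, was at 9 ± 0.529 TPM, Irx3 at 5.9 ± 0.2 TPM and the Notch ligand gene Jag1 at 3.7 ± 0.361 TPM. Fgf8, which is switched on with Wnt4 in the embryo, was listed at 0, as were Dkk1, Bmp2 and Hes5. Start sites of 9 of the 10 detected genes were open, against 63.2% of all genes from 1 to under 10 TPM and 91.7% of those at 100 TPM or more.

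Markers of mature nephron segments were mixed, with several that define a segment listed at 0. The counts that follow stand beside 54.2% of all protein-coding genes detected. For the podocyte, the filtration cell of the glomerulus, 6 of 12 genes were detected, led by Cd2ap at 179 ± 5.18 TPM, Kirrel at 110 ± 4.80 TPM and Podxl at 48.2 ± 1.3 TPM, while the slit diaphragm gene Nphs1 was listed at 0. For the proximal tubule 4 of 12 genes were detected. The water channel gene Aqp1 stood at 451 ± 20 TPM (281 TPM in the 6-library table), the endocytic receptor genes Lrp2 and Cubn at 2.6 ± 0.436 TPM and 2.53 ± 0.0577 TPM, and Hnf4a at 0. Slc5a2, a glucose transporter gene, had 21 ± 1.6 TPM here but 0.0167 TPM in the 6-library table, so its level rests on the table used. For the loop of Henle and distal tubule 2 of 10 genes were detected (Sim1 at 13.8 ± 1.59 TPM and Trpm6 at 6.93 ± 0.850 TPM), and Umod, Slc12a1 and Slc12a3 were at 0. Of 16 genes of the ureteric bud and collecting duct 6 were detected, among them Sox9 at 176 ± 12.8 TPM, Hoxb7 at 70.4 ± 3.95 TPM and Etv4 at 44.1 ± 0.954 TPM. The bud's receptor gene Ret was listed at 0, Wnt11 at 0, 0.1 and 0.1 TPM, and Aqp2 at 0.1, 0 and 0 TPM.

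The stromal list was split in the same way. Of 26 genes 13 were detected, a share near the 54.2% of all protein-coding genes, and 6 were listed at 0. The median was 1.13 TPM against 3.23 TPM for all protein-coding genes. Foxd1, the defining stromal factor, had 97.0, 88.6 and 93.8 TPM (mean 93.1 ± 4.24; 49.1 TPM in the 6-library table). The matrix gene Tnc had 86.7 ± 5.08 TPM, the guidance gene Ntn1 had 78.7 ± 2.75 TPM, Ecm1 had 68.6 ± 4.07 TPM and Tbx18, a factor of the stroma around the ureter, had 57.3 ± 2.51 TPM. The receptors by which stroma is usually recognised were low, with Pdgfra at 0.5 ± 0.1 TPM and Pdgfrb at 1.47 ± 0.0577 TPM, and Tcf21, Aldh1a2 and Ren1 were listed at 0. The homeobox cofactor gene Meis1 had 0.2 TPM in each library and Meis2 had 3.23 ± 0.252 TPM (33.9 TPM in the 6-library table). mRNAs of Foxd1 and of the nephron lineage genes Pax2 and Pax8 were therefore present in the same libraries, and bulk RNA cannot show whether the same cells held them.

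The Foxd1 promoter (chr13:98353995-98354294, GRCm38.p6, plus strand) and a RefSeq promoter of Pax2 (chr19:44746351-44746650, plus strand) are given with CpGs in capitals. The genes belong to the stromal and the nephron lineage and both were expressed here. The Pax2 window matches mm9 chr19:44820841-44821140, upstream of the Pax2 gene start at 44830539 in the mm9 annotation. Levels per gene cannot show which Pax2 start site was used.
Foxd1: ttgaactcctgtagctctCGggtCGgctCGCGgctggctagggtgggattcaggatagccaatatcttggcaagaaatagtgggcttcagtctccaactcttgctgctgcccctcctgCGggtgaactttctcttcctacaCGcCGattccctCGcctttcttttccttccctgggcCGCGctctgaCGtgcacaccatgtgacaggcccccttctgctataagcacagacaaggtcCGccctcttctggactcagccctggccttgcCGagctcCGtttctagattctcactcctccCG
Pax2: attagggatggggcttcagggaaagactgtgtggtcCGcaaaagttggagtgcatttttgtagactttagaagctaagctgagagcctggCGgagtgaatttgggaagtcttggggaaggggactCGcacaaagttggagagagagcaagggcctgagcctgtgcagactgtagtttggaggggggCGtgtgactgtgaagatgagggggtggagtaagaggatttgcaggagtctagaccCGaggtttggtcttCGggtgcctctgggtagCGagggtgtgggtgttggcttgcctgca
Both matched mm9 once and both met an open region of control cells. They held 15 and 7 CpGs.

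Lists for other tissues served as the background of the lineage lists. Of 14 endothelial genes 4 were detected, with Plvap highest at 6.7 ± 0.917 TPM and Pecam1 at 0.1 TPM in each library. Of 13 blood and immune genes 2 were detected (Hba-a1 at 5.97 ± 1.5 TPM and Cd68 at 2.17 ± 0.306 TPM) and Ptprc was at 0. Of 10 neural and glial genes 2 were detected, among them the tubulin gene Tubb3 at 79.7 ± 4.72 TPM, with Sox10 at 0, 0.1 and 0 TPM. Of 10 muscle genes only Des was detected, at 4.43 ± 0.153 TPM. The summed level of these lists ranged from 5.9 ± 0.2 TPM for muscle to 81.5 ± 4.73 TPM for the neural list, where Tubb3 made up nearly all of it. The sums were 784 ± 7.55 TPM for the nephron progenitor list, 542 ± 11.6 TPM for the renal vesicle list and 424 ± 20.1 TPM for the stromal list. Few genes held much of the first 2 sums: Pax2 (313 TPM) with Hoxa11 (214 TPM), and Ccnd1 (221 TPM) with Pax8 (200 TPM). A sum alone does not set these lineages apart, since Aqp1 of the proximal tubule list had a mean of 451 TPM, above the mean stromal sum.

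On the axis from mesenchyme to epithelium, more of the mesenchymal than of the epithelial list was detected. Over all protein-coding genes the share was 54.2%. Of 26 mesenchymal genes 20 were detected, with a median of 17.0 TPM and a summed level of 6533 ± 97.0 TPM, whereas 12 of 36 epithelial genes were detected, with a median of 0.15 TPM and a sum of 226 ± 2.83 TPM. Vim, which encodes the intermediate filament protein of mesenchymal cells, had 2773, 2887 and 2749 TPM and ranked 5 of all protein-coding genes. S100a4 had 1305 ± 51.7 TPM, Sparc 673 ± 11.5 TPM and N-cadherin, Cdh2, 267 ± 0.656 TPM. Among repressors of the epithelial state Snai1 had 21.9 ± 1.4 TPM, Zeb1 15 ± 0.709 TPM (26.8 TPM in the 6-library table), Zeb2 5.2 ± 0.3 TPM (16.3 TPM) and Snai2 4.6 ± 0.361 TPM, where Zeb2 was above Snai2 within each library but their ranges overlapped. Twist1 was listed at 0, whereas its paralogue Twist2 had 920, 889 and 935 TPM. The mesenchymal surface gene Thy1 and the fibroblast gene Fap were at 0 and Prrx1 at 0.2 ± 0.1 TPM. E-cadherin, Cdh1, was at 0.1 TPM in each library, Epcam at 0, and Esrp1, Ovol2, Ocln and Cldn7 at 0. A few epithelial genes were nevertheless present, led by Lad1 at 101 ± 1.65 TPM, P-cadherin, Cdh3, at 44.6 ± 0.924 TPM, the Ets factor gene Elf3 at 32.0 ± 2.86 TPM and Spint2 at 18.1 ± 1.51 TPM.

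The Twist2 promoter (chr1:91801211-91801510, GRCm38.p6, plus strand) is shown because Twist2 was the most abundant lineage-associated factor, again with its 25 CpGs in capitals.
Twist2: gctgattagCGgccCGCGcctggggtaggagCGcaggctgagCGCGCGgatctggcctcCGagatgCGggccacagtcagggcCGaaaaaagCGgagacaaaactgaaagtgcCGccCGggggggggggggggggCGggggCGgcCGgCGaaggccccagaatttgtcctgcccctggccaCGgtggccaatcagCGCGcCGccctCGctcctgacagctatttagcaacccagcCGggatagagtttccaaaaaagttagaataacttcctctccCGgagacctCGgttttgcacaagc
Its single mm9 match, chr1:93697788-93698087, met an open region.

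Of 1195 transcription factor genes 746 were detected (62.4%), 55 had a mean of at least 100 TPM, and all together held 3.27% ± 0.0794 of TPM. Junb stood alone at the top with 2483, 2394 and 2516 TPM, rank 13 of all protein-coding genes. Twist2 (915 ± 23.2 TPM) and Egr1 (854, 758 and 932 TPM) followed, with Twist2 higher within each library but ranges that overlapped, and then Jun (712 ± 17.6 TPM), Fosl1 (669 ± 29.5 TPM) and Nr4a1 (596 ± 35.9 TPM), each with a range above that of the next. Atf4, which directs the amino acid response, had 493 ± 7.24 TPM and overlapped Jund at 486 ± 21 TPM. Below them came Klf6 (439 ± 5.62 TPM), Atf3 (438 ± 16.9 TPM), Fos (412 ± 10.8 TPM) and the cell cycle factor gene E2f4 (355 ± 2.31 TPM). Of the 30 highest, 20 had a range that overlapped that of the next, so that most of this order below E2f4 lies within the spread.

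Basic leucine zipper genes made up 12 of the 30, from 52 genes of that family among the 1195. They included the 7 Fos and Jun genes whose products pair to form AP-1, a factor that growth signals switch on within minutes: Junb, Jun, Fosl1, Jund, Fos, Fosl2 (289 ± 18.9 TPM) and Fosb (215 ± 11.7 TPM). The early response genes Egr1, Nr4a1 and Nr4a2 (235 ± 18.7 TPM) stood among the 30 as well. The cells had been lifted with trypsin, which the authors inactivated with conditioned medium so that fresh medium would not activate signalling. The part of the lifting step in these levels was not tested. Kidney regulators were in the same range, with Pax2 at place 14 with 313 TPM, the Notch target Hes1 at 305 ± 23.6 TPM, Hoxb9 at 242 ± 7.71 TPM, Hoxa11 at 214 TPM and Pax8 at 200 ± 11.3 TPM. The remaining factors of the 30 were Bhlhe40 (317 ± 18 TPM), the progenitor factor gene Sox4 (264 ± 11.9 TPM), the sterol regulator gene Srebf2 (254 ± 10.6 TPM), Mafk (230.0 ± 2.85 TPM), Nfkb1 (226 ± 3.82 TPM), Zfp91 (222 ± 7.30 TPM), Nfil3 (220.1 ± 1.37 TPM), Erf (196 ± 12.3 TPM), Nfatc3 (183 ± 8.65 TPM) and the oxidative stress factor gene Nfe2l2 (183 ± 3.65 TPM). Of the 30 factors 21 were also among the 30 highest in the 6-library table.

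**Figure D3:**
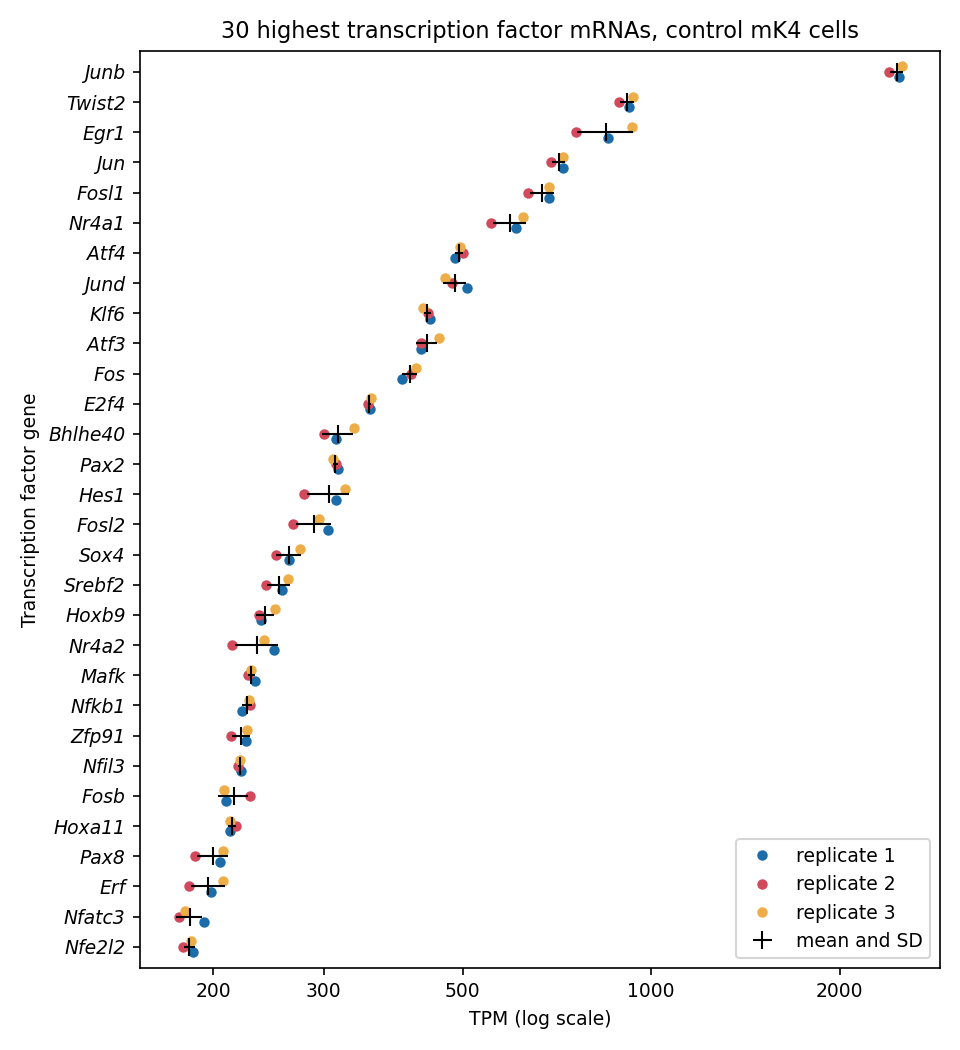
TPM (log scale) of the 30 transcription factor genes with the highest mean in control mK4 cells; points are the 3 libraries, bars the mean and SD. Junb lies at 2464 TPM, far to the right of Twist2 and Egr1, and neighbors below E2f4 mostly overlap.

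Runx1, the gene the study is about, was expressed at a modest level. It had 18.7, 15.6 and 17.9 TPM (mean 17.4 ± 1.61; 30.5 TPM in the 6-library table) and ranked 7416 of the protein-coding genes. Runx2 had 5.47 ± 0.551 TPM (24.7 TPM in the 6-library table), below Runx1 in every library, and Runx3 had 0.2 ± 0.1 TPM. Cbfb, the partner that Runx proteins need on DNA, had 78.2 ± 4.17 TPM (180.4 TPM in the 6-library table). Runx1 and Runx2 thus lay further apart in this table than in the other. The distal Runx1 promoter of RefSeq (chr16:92826025-92826324, GRCm38.p6, minus strand) is printed since it holds 2 copies of the Runx core motif TGTGGT, which appear as ACCACA on the strand shown, in capitals, the first of them 28 bases after the start site.
Runx1: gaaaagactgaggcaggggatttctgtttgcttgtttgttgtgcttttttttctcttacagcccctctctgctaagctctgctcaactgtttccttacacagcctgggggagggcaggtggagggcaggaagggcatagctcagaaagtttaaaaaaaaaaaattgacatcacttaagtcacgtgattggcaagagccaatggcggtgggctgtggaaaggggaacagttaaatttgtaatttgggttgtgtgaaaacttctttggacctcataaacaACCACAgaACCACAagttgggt
TGTGGT on either strand was found in 16.9% of all 27025 RefSeq promoters of this length, and 2 or more copies in 1.81%. The single mm9 match, chr16:92826270-92826569, met a Runx1 peak and a Runx2 peak of control cells and no open region. By the paper, the Runx1 transcript that mK4 cells express has its start codon in the exon that was deleted. Levels per gene cannot show which Runx1 start site was used, so this window need not be the promoter behind the level given.

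Hox genes, whose order along each cluster follows body position, were expressed from 2 of the 4 clusters. Of 39 genes 21 were detected. In the Hoxa cluster 10 of 11 genes were detected and summed to 482 ± 4.57 TPM, and in the Hoxb cluster 9 of 10 were detected and summed to 633 ± 16.9 TPM. In the Hoxc cluster only Hoxc6 (3.1 TPM) and Hoxc9 (5.67 TPM) were detected, with a sum of 10.6 ± 0.723 TPM for the cluster, and in the Hoxd cluster none of 9 was, with 7 of them at 0. Within Hoxa the level stepped up at Hoxa11, from 35.8 TPM at its neighbor Hoxa10 to 214 TPM, and Hoxa13, which belongs to the tail and cloaca, was at 0, 0 and 0.1 TPM. The other detected Hoxa genes included Hoxa2 at 3.67 TPM and rose to 49.7 TPM for Hoxa7 and Hoxa9, with Hoxa3 at 28.4 TPM, Hoxa4 at 31.2 TPM, Hoxa5 at 41.5 TPM and Hoxa6 at 24.3 TPM. Within Hoxb the highest were Hoxb9 (242 TPM) and Hoxb2 (123.5 TPM), followed by Hoxb7 (70.4 TPM), Hoxb6 (65.0 TPM), Hoxb8 (58.1 TPM), Hoxb4 (30.1 TPM), Hoxb3 (19.8 TPM), Hoxb5 (17.4 TPM) and Hoxb13 (6.3 TPM). An antisense transcript of the Hoxa11 locus, Hoxa11os, had 342 ± 10.7 TPM, above Hoxa11 in every library. Whether counting used strand is not given in the sources used here, so reads of both partners cannot be told apart, and this gene was chosen after its value was seen. Open regions lay within 500 bp of the start site of 8 of 11 Hoxa genes, 3 of 10 Hoxb genes and none of the 9 Hoxc and 9 Hoxd genes.

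**Figure D4:**
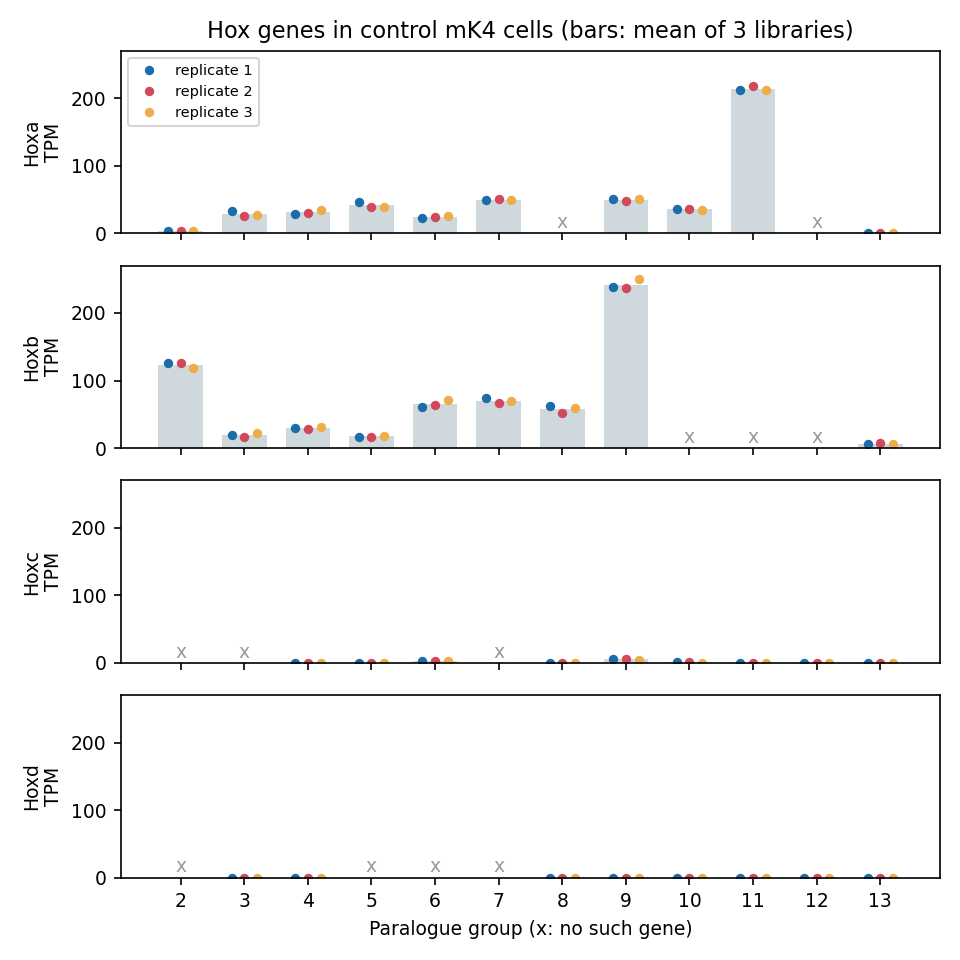
TPM of each Hox gene by cluster (rows) and paralogue group from 2 to 13 (horizontal axis); bars are means of the 3 control libraries, which are drawn as points, and x marks a group the cluster lacks. Hoxa11, Hoxb9 and Hoxb2 stand highest, and the Hoxc and Hoxd rows lie near 0.

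Of the 30 highest entries 12 were ribosomal protein genes, 4 were miRNA hairpin entries and 14 were others. Eef1a1, which brings aminoacyl-tRNA to the ribosome, had 5164, 5554 and 5189.6 TPM and was above every other protein-coding gene in all libraries. The calcium binding gene S100a11 followed at 4261 ± 49.8 TPM, an order that turned in the 6-library table (8753 TPM against 8012 TPM for Eef1a1), and the actin gene Actb at 4161 ± 26.5 TPM. The actin-severing gene Cfl1 (2689 ± 21.1 TPM), the S100a11 relative S100a6 (2671 ± 114 TPM), the growth-related gene Tpt1 (2659 ± 50.2 TPM), the chaperone gene Hsp90ab1 (2496 ± 46.9 TPM) and Rack1 (2206 ± 74.3 TPM) lay close together. Golph3, which encodes a Golgi membrane protein, had 2456 ± 87.6 TPM and Tars, which charges tRNA with threonine, had 2320.4 ± 29.8 TPM, levels that put both in the company of ribosomal protein genes. Rpl13 led the ribosomal protein genes at 3104 ± 68.9 TPM, and the others of the 30 ran from Rpl12 at 2667 ± 20.3 TPM and Rps26 at 2612 ± 36.2 TPM to Rplp0 at 2032 ± 28.1 TPM. Rpl41 had the widest spread of these, with 2249.8 TPM in replicate 1 against 2648 and 2721 TPM in the others. Rpl34-ps1, at 2455 ± 45.7 TPM, had 0.323 TPM in the 6-library table and Rps27rt had 2183 ± 86.4 TPM. Both are near-identical copies of ribosomal protein genes, so that their share of the reads is uncertain.

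By group, cytoplasmic ribosomal proteins held 9.73% ± 0.193 of all TPM, with 81 of 85 genes detected and a median of 1059 TPM. Nuclear genes of oxidative phosphorylation held 2.23% ± 0.0372 (82 of 87 detected), translation factors 2.19% ± 0.0352 (64 of 68), chaperones 1.87% ± 0.0193 (78 of 92), the actin cytoskeleton 1.56% ± 0.00711 (31 of 33), the proteasome 1.33% ± 0.0199 (47 of 50) and S100 proteins with annexins 1.28% ± 0.0335 (17 of 26). Glycolysis genes held less, with 16 of 17 detected, Eno1 at 1233 ± 44.1 TPM, Pgk1 at 1171 ± 46.7 TPM and Gapdh at 970.4 ± 18.2 TPM. Gapdh had 3360 TPM in the 6-library table.

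All 27 genes of the cell cycle list were detected, with a median of 178.1 TPM. The replication clamp gene Pcna had 531 ± 9.61 TPM, the licensing gene Cdt1 514 ± 7 TPM, the nucleotide reductase gene Rrm2 495 ± 21.5 TPM and Top2a 382 ± 8 TPM. All 18 genes of the list of cell cycle inhibitors and the p53 pathway were detected too, with a median of 80.2 TPM. Its highest members were the p53 target genes Ccng1 (656 ± 29.6 TPM), Cdkn1a (556 ± 11.4 TPM), Bax (368 ± 18.3 TPM) and Mdm2 (250.2 ± 7.37 TPM), with Trp53 itself at 183 ± 3.92 TPM and Cdkn2a at 116 ± 2.69 TPM. Genes of cell division and genes that restrain it were thus high in the same libraries.

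The share of receptor and ligand genes detected differed between lists, beside 54.2% of all protein-coding genes. For receptor tyrosine kinase and Notch genes it lay near that value. Of 14 genes of the Gdnf and Ret pathway 5 were detected. The cells expressed Gdnf, and the feedback inhibitor genes Spry2 (83.1 ± 3.67 TPM) and Spry1 (13.1 ± 1.4 TPM), while the receptor genes Ret and Gfra1 were at 0 and at 0.1 TPM in each library. Of 55 receptor tyrosine kinase genes 27 were detected, led by Epha2 (252 ± 2.07 TPM), Axl (140.2 ± 4.43 TPM), the collagen receptor gene Ddr2 (83.8 ± 4.75 TPM), Egfr (78.1 ± 3.81 TPM) and Ryk (70.6 ± 0.611 TPM). Of 140 ligand genes 61 were detected. The matricellular genes Ccn1 (1790.3 ± 72.5 TPM) and Ccn2 (261 ± 15.5 TPM), which Yap and Tead activate in spread cells, stood first, followed by osteopontin, Spp1 (176 ± 3 TPM; 649 TPM in the 6-library table), Fstl1 (142 ± 5.39 TPM) and Lif (123.6 ± 6.22 TPM), an inducer of nephron formation in culture.

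Of 24 Wnt receptor and effector genes 20 were detected, with Ctnnb1 at 207 ± 3.65 TPM, Lrp5 at 74.0 ± 3.58 TPM, Tcf7l1 at 49.6 ± 3.12 TPM, Fzd7 at 46.9 ± 4.3 TPM and Fzd6 at 46.8 ± 1.96 TPM. The Wnt target Axin2 was at 18.3 TPM, outside the rule for named genes and chosen after its value was seen. Of 25 BMP and TGF-beta receptor and Smad genes 21 were detected, led by the response genes Id2 (335 ± 13.8 TPM; 142 TPM in the 6-library table), Id3 (302 ± 8.16 TPM) and Id1 (84.6 ± 1.01 TPM), with Bmpr1a at 82.8 ± 3.17 TPM and Tgfbr2 at 76.9 ± 1.1 TPM. Of 23 Notch receptor and effector genes 13 were detected. Hes1 was far above Maml1 (81.7 ± 4.36 TPM), the fringe gene Lfng (73.0 ± 2.63 TPM), Notch2 (72.7 ± 3.96 TPM) and Rfng (47.3 ± 1.72 TPM).

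Counts of matrix and adhesion genes stand beside 54.2% of all protein-coding genes detected. Of 44 collagen genes 19 were detected, led by Col6a1 (330.5 ± 5.5 TPM), Col5a2 (149 ± 0.907 TPM) and the basement membrane genes Col4a2 (126 ± 5.29 TPM), Col4a1 (126 ± 3.30 TPM) and Col4a6 (114 ± 3.87 TPM). The interstitial collagen genes Col1a1 and Col3a1, both on the stromal list, had 2.03 ± 0.306 TPM and 1.43 ± 0.321 TPM. Of 11 laminin genes 7 were detected, with Lamc1 at 205 ± 13.5 TPM, Lamb1 at 112 ± 2.55 TPM, Lama5 at 63.6 ± 3.69 TPM and Lamb2 at 60.5 ± 0.833 TPM, while Lama1, Lama2 and Lama4 were listed at 0. Of 26 integrin genes 13 were detected and Itgb1, the common beta chain, had 853 ± 8.88 TPM, against 95.7 ± 6.74 TPM for Itgav and 94.1 ± 3.75 TPM for Itgb5. Of 23 cadherin genes 9 were detected, with Cdh13 at 101 ± 1.93 TPM after Cdh2. Of 55 keratin genes 4 were detected, and only Krt80, at 96.7 ± 8.41 TPM, had a mean of at least 10 TPM. The inhibitor genes Timp3 (370 ± 14.6 TPM) and Timp2 (342 ± 6.47 TPM) exceeded every metalloproteinase gene, the highest of which was Mmp15 at 38.5 ± 2.29 TPM. Of 20 connexin genes 4 were detected and Gja1 stood first at 144 ± 3.69 TPM. Among other matrix and secreted proteins Lgals1 had 1854 ± 55.9 TPM and Igfbp2 had 412 ± 2.5 TPM.

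Of 26 imprinted genes, which are read from the copy of 1 parent, 12 were detected, beside 49.1% of all listed entries. Peg3 had 416 ± 29.9 TPM, Igf2 106 ± 3.6 TPM (264.5 TPM in the 6-library table) and Grb10 103 ± 3.29 TPM. H19, the noncoding neighbor of Igf2, was at 0, 0.3 and 0.2 TPM. Xist, which is transcribed from an inactive X chromosome, was at 0.1, 0 and 0 TPM. The Y-linked genes Ddx3y, Eif2s3y, Kdm5d and Uty were listed at 0, whereas their X-linked partners Ddx3x (385 ± 11.5 TPM), Eif2s3x (166 ± 3.01 TPM), Kdm5c (130.5 ± 10.3 TPM) and Kdm6a (24.6 ± 1.54 TPM) were detected.

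Open regions and Runx peaks of control cells, which the choice of libraries did not use, were then set against the levels. Of 46222 open regions, from the lists of sites open in control cells, those within 500 bp of the most upstream start site of a protein-coding gene were counted in 18353 genes. An open region lay at 2.80% of genes listed at 0, 17.0% of those above 0 and under 1 TPM, 63.2% of those from 1 to under 10 TPM, 88.2% of those from 10 to under 100 TPM and 91.7% of those at 100 TPM or more. Runx1 peaks lay at 0.0801%, 1.07%, 10.7%, 18.1% and 23.7% of the same classes and Runx2 peaks at 0.381%, 4.31%, 28.0%, 48.3% and 52.6%. Of 1825 genes with a Runx1 peak at the start site 1787 had a Runx2 peak there as well. The shares went up with each class. RefSeq promoter sequences showed a like order, with a median of 3 CpGs in 300 bases for genes listed at 0 (n = 3953), 16 for genes from 1 to under 10 TPM (n = 1775) and 23 for genes at 100 TPM or more (n = 1648). The TATA sequence TATAAA, searched on both strands, was present in 25.6% of promoters of genes listed at 0, 5.66% of those from 10 to under 100 TPM and 7.34% of those at 100 TPM or more, against 14.2% of all RefSeq promoters. These are shares of genes, which are not replicates, and Runx peaks were called by the authors on combined replicates and open regions kept if found in at least 2 of 3 replicates, so that no error between libraries is available. Some abundant genes had no open region at the annotated start site, among them Rps2 at 2013 TPM, which was chosen after its value was seen.

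The levels were also read along the chromosomes, in runs of 15 consecutive detected protein-coding genes, because Golph3 and Tars, 2 of the most abundant genes, lie near each other. This was done after the values were seen. Of 9775 overlapping runs with a typical median of 32.8 TPM, the highest median was 286 TPM, for the run from Skp2 to Mtmr12 on mm9 chr15:9070207-12134783. The next separate run, on chromosome 5, had a median of 178.1 TPM. The run on chromosome 15 was the highest in each of the 3 libraries, moved by 1 gene to Lmbrd2 to Golph3 in replicates 1 and 3, and in the 6-library table, where its median was 319 TPM. Since the run was chosen for its median, the levels inside it are a description: 10 of the 15 detected genes had at least 100 TPM and 2 had at least 1000 TPM.

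The members differ in function. Skp2, which tags cell cycle inhibitors for destruction, had 289 ± 3.27 TPM, and Lmbrd2 had 286 ± 26.6 TPM. Dnajc21 and Brix1, both of ribosome assembly, had 702 ± 11.5 TPM and 1064 ± 35.5 TPM. Rai14 had 180.3 ± 4.42 TPM, Amacr 121 ± 4.48 TPM, Tars 2320.4 TPM, the coactivator gene Sub1 457 ± 11.0 TPM, the RNA binding gene Zfr 817 ± 27.7 TPM and Mtmr12 292 ± 2.73 TPM. Just past the run lie Golph3 at 2456 TPM and Drosha, which cuts miRNA precursors, at 876 ± 24.1 TPM, and before it the glutamate transporter gene Slc1a3 at 434 ± 8.37 TPM. Low genes lie among them: Npr3 had 9.8 ± 0.819 TPM, Adamts12 2.13 ± 0.153 TPM, and Il7r, Agxt2 and Rxfp3 were listed at 0.

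Open regions, which did not choose the run, were dense over most of the same stretch. There were 238 in the 3.06 Mb of the run, or 77.7 per Mb, against a median of 15 per Mb over 831 windows of that length and a 95th percentile of 46.2 per Mb, and 2 of those windows were as dense or denser. Runx1 peaks numbered 10.8 per Mb (median 3.26) and Runx2 peaks 19.9 per Mb (median 5.22), where 18 and 25 of the 831 windows were as dense or denser. Of the 9 genes of the run under 1 TPM, 4 (Spef2, Agxt2, Slc45a2 and Rxfp3) had an open region within 500 bp of their start site (44.4%, against 8.33% of all 8167 genes under 1 TPM). These groups differ in level, since 3 of the 9 but 4992 of the 8167 were listed at 0. Over all genes the share was 2.80% of those listed at 0 and 17.0% of those above 0 and under 1 TPM. Counted from the Skp2 start site, open regions numbered 23 from 2 to 1 Mb before it, 102 in the last Mb before it, 42, 81, 107 and 109 in the 4 Mb after it, and 53 in the fifth. The paper describes the karyotype of mK4 cells as normal. The number of copies of this stretch in mK4 cells was not measured in the files used, and its part in these values was not tested. Promoters of the highest gene and of a gene at 0 are set side by side, Golph3 (chr15:12321246-12321545, GRCm38.p6, plus strand) with its TGACGTCA motif in capitals and Agxt2 (chr15:10358283-10358582, plus strand) with its 4 CpGs in capitals.
Golph3: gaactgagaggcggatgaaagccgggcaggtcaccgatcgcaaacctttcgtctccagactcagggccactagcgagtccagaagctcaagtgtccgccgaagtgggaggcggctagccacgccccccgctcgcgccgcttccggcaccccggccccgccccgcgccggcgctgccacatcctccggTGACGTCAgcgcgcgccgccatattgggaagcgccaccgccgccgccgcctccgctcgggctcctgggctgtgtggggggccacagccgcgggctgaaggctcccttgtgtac
Agxt2: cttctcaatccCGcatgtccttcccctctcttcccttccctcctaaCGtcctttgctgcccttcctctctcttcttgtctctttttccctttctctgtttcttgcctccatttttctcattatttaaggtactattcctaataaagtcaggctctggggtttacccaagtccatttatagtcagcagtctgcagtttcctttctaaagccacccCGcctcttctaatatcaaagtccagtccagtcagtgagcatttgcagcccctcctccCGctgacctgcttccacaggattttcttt
Both matched mm9 once and met an open region. The Golph3 match also met a Runx2 peak, and the Agxt2 match met no Runx peak. Golph3 held 36 CpGs, and TGACGTCA, which reads the same on both strands, began 63 bases before its start site. That motif occurred in 1.88% of all RefSeq promoters and in 4.31% of those of genes at 100 TPM or more.

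**Figure D5:**
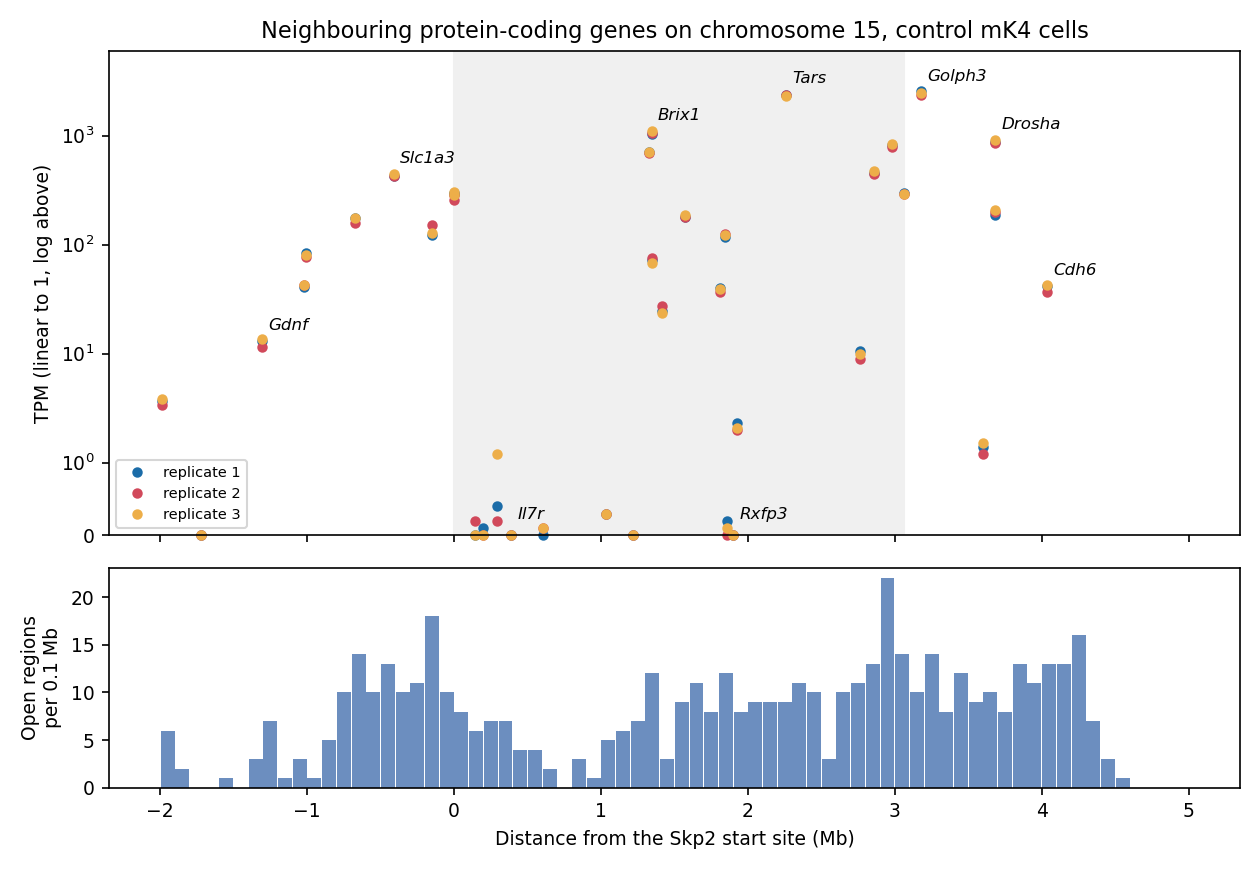
Upper panel, TPM of protein-coding genes in the 3 control libraries (points, linear to 1 TPM and log above) by distance in Mb from the Skp2 start site on chromosome 15, with the run of 15 detected genes shaded; lower panel, open regions of control cells per 0.1 Mb. Genes above 100 TPM and genes at 0 alternate within the shaded stretch, and open regions are dense before Skp2 and from the second to the fourth Mb after it, with a sparse stretch late in the first Mb.

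Hairpin entries for miRNAs need a separate reading. The table lists 1173 of them, 298 were detected, and together they held 5.04% ± 0.0708 of TPM. The most abundant entry of all was Mir7067, with 7955, 8189 and 7986 TPM. Poly(A) libraries do not capture mature miRNAs. By RefSeq positions, 342 of 368 hairpins with a mean of at least 1 TPM lie inside another gene. Mir5121 (3942 ± 105.5 TPM) lies in Rpl13a, Mir5114 (3276 ± 132 TPM) in Scd2 and Mir6935 (2787 ± 36.1 TPM) in Actg1. These 3 and Mir7067 were listed at 0 in or absent from the 6-library table. Reads of the surrounding gene and of the hairpin cannot be told apart here. The 10 entries with a mean of at least 10 TPM and the widest spread between libraries were all hairpin or snoRNA entries, led by Mir6984 with 1.5, 25.3 and 11.6 TPM.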

How the data were processed

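Poly(A) RNA of control mK4 cells, grown in triplicate, was sequenced by the study. After trimming (Trim Galore) and STAR alignment to mm9 without duplicate reads, the authors counted RefSeq genes with featureCounts 1.6.2 (version from the submitters' processing notes) and deposited the TPM values used here. The gene lengths behind the TPM are not given in the sources used here. TPM keeps no depth, so no counting interval can be given. The authors' peak lists, called with MACS2 on mm9, hold a fold enrichment and a −log10 q-value for each Runx peak as deposited. Of these lists positions were used, with every deposited Runx peak kept. Open regions in control cells were the Runx1-independent and Runx1-dependent sites together.

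Only the columns named for the 3 WT libraries were read, and 0 columns had no sample. The further TPM table of the same libraries served as an alternative. No test was run, since 1 group of 3 libraries was described: means, SDs (n = 3), ranges and shares were computed with Python 3.11.15, pandas 2.3.3, numpy 2.4.6 and scipy 1.17.1, and drawn with matplotlib 3.10.9. The code was tested on simulated data. Ranges of neighbors in an order were said to overlap unless the lowest library of 1 gene was above the highest of the other. Promoter sequences came from RefSeq tables of GRCm38.p6 and were placed on mm9 only by exact match.

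Members and lists were chosen with earlier results of these data known. Genes named were the 30 highest entries, the 30 highest transcription factors, list members of at least 1 TPM among the 8 highest of each lineage list with its defining markers, detected Hox genes, the 5 highest of each signalling, matrix or adhesion list, and the 10 entries of at least 10 TPM with the widest ratio between libraries. Some genes that meet this rule are not reported here. Alternatives were other detection levels, each library left out, other gene sets for the scaling, other promoter windows, Runx peaks with a −log10 q of at least 2 and the further table. Rescaling without small RNA entries and other lengths of gene runs were chosen after seeing the data.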

Additional observations from a re-analysis of the deposited data

How the results depend on the processing

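No paired analysis was possible because 1 group was described. The number of genes detected in control libraries, 12245, became 12867 at 0.5 TPM, 10448 at 5 TPM and 11595 in the 6-library table, and 12329 to 12355 with 1 library left out. At 5 TPM the stromal list had 8 detected genes instead of 13. The share of the 100 highest entries, 18.8%, became 29.1% in the 6-library table, 16.4% without ribosomal protein and histone genes and 18.1% without small RNA entries (18.6% to 18.8% with 1 library left out). The ribosomal protein share, 9.73%, became 14.7% in the 6-library table and 10.3% without small RNA entries. The transcription factor share, 3.27%, became 2.76% in the 6-library table, 3.65% without ribosomal protein and histone genes and 3.45% without small RNA entries. Open start sites at 100 TPM or more, 91.7%, became 93.5% within 2000 bp and 94.6% with any annotated start site. Those of genes listed at 0, 2.80%, became 2.14% within 100 bp, 5.85% within 2000 bp, 3.97% with any start site and 2.32% with Runx1-independent regions alone. The cause of the difference between both TPM tables was not tested, and 98 of 146 named genes with at least 1 TPM differed by more than 1.5 times between them (76 lower and 22 higher in the 6-library table), so that levels printed with 1 value only carry that doubt. With runs of 9 genes the highest median was 457 TPM (Tars to Drosha), and with 25 genes 197.5 TPM (Nup155 to Basp1), on the same chromosome. The table lists no mitochondrially encoded gene, so rescaling without them was not run.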
